A study of Homo sapiens with 6 samples.

Results

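The zinc finger gene clusters of chromosome 19 were taken as 6 intervals of hg19, chosen by position alone. Interval 1 ran from 11700000 to 12800000 and interval 2 from 19700000 to 24400000, both on the short arm. Interval 3 ran from 44200000 to 45000000, interval 4 from 52300000 to 53980000, interval 5 from 56600000 to 57340000 and interval 6 from 57360000 to 58000000, all on the long arm. A CpG was a member when it lay in one of them and was covered by at least 10 reads in each of 6 libraries. This held for 1365 CpGs, of 336571 such CpGs in the genome, and another 23213 lay elsewhere on chromosome 19. Intervals 1 to 6 held 343, 272, 56, 266, 356 and 72 members. Of the 5174 CpGs listed in any library inside the intervals, 26.4% were members, against 26.3% on the rest of the chromosome.

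DNA of PC-3, a human cell line established from a prostate carcinoma, had been bisulfite-treated and sequenced. In bisulfite sequencing an unmethylated cytosine is read as T and a methylated one as C. Libraries of 3 SAM samples came from cells given 160 µM S-adenosylmethionine for 5 days, and those of 3 control samples from cells given PBS for 5 days. S-adenosylmethionine is the methyl donor of DNA methyltransferases, and the design compares it with its vehicle. Whether replicates came from separate cultures is not stated by the labels, so p-values reflect the spread among these libraries alone, and that spread may be technical.

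Most genes in these clusters arose by tandem duplication and encode proteins with arrays of zinc fingers that bind DNA, many of them with a KRAB domain. The KRAB domain recruits the corepressor TRIM28, through which these proteins silence transposable elements and some genes by histone and DNA methylation. Their promoters are often CpG islands, stretches rich in CpGs that stay unmethylated in most normal tissues and become methylated at some of these genes in cancers.

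Total reads over listed positions were 36220663 to 179379782 in SAM libraries and 33056018 to 183523792 in control libraries. Median reads at members were 138, 43 and 159 in SAM libraries 1 to 3, against 154, 40 and 157 in control libraries 1 to 3. By read coverage the libraries were divided into 2 sets, each with both treatments. The number of sets was fixed in the clustering and not found by it. Set A held SAM library 1 and control libraries 1 and 3, and set B held SAM libraries 2 and 3 and control library 2. Coverage correlated at 0.755 between SAM library 1 and control library 3 and at 0.839 between SAM library 3 and control library 2. SAM library 2 correlated with the other libraries of its set at only 0.101 and 0.0586, and control library 1 with those of its own at 0.287 and 0.0545, so both belong to their sets weakly. Differences are given within each set beside the pooled value, although within a set 1 library of a treatment stands against 2 of the other.

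Promoter windows of 300 bases, from 250 before to 50 after a RefSeq gene start, were placed on hg19 by matching the spacing of their CpGs to the listed positions. In the intervals 41 windows of 38 genes were placed, 27 of them genes with a zinc finger name, and 26 windows of 25 genes held at least 5 members. The sequences of 7 windows carry the contrasts described here. ZNF534, a zinc finger gene, and USP29, a ubiquitin-specific protease gene, stood at the top of the range of methylation. ZNF582-DT, a divergent transcript that starts beside the zinc finger gene ZNF582, and both starts of ZNF583 held partly methylated stretches. ZNF528 varied widely between libraries, and ZNF160 was almost free of methylation and was added after its values were seen. Bases are from RefSeq on GRCh38.p14, printed 5′ to 3′ along the gene's own strand, with the matched hg19 position of each window. Capitals mark the CpGs measured in all 6 libraries.
ZNF534, chr19:52932151-52932450, plus strand: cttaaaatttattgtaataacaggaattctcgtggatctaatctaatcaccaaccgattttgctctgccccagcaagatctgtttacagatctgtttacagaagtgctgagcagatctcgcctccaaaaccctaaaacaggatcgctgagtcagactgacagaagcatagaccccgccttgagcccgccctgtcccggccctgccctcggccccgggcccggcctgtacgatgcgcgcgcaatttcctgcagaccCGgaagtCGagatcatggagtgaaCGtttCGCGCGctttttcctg
ZNF582-DT, chr19:56904795-56905094, plus strand: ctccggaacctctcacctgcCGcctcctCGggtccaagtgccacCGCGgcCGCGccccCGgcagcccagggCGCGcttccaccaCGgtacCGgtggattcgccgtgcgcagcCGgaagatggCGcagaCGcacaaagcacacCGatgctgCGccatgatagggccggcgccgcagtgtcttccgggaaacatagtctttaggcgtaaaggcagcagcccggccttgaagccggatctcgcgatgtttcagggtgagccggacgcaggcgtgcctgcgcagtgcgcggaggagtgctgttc
ZNF583 upstream start, chr19:56915133-56915432, plus strand: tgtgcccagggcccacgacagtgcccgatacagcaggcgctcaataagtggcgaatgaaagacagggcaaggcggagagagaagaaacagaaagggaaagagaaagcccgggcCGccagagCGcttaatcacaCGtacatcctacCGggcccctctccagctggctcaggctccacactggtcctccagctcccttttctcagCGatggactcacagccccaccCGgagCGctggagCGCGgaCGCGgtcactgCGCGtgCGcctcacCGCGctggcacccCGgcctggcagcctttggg
ZNF583 downstream start, chr19:56915451-56915750, plus strand: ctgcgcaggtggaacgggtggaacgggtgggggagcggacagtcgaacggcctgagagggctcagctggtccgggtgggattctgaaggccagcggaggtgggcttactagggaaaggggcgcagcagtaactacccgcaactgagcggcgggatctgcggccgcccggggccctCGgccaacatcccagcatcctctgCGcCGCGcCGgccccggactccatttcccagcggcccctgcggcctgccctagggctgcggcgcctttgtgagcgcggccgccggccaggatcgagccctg
USP29, chr19:57630205-57630504, plus strand: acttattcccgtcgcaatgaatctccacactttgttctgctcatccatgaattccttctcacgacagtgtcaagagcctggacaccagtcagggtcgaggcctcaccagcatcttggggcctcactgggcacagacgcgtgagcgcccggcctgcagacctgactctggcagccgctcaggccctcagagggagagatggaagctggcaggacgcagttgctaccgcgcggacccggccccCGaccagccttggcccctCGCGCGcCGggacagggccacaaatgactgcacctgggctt
ZNF528, chr19:52900852-52901151, plus strand: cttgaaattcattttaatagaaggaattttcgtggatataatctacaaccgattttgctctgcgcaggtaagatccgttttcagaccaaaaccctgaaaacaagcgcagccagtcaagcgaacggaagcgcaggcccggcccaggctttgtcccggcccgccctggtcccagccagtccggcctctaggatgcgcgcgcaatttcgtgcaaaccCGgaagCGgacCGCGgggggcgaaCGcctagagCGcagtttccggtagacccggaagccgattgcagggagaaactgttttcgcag
ZNF160, chr19:53606626-53606925, minus strand: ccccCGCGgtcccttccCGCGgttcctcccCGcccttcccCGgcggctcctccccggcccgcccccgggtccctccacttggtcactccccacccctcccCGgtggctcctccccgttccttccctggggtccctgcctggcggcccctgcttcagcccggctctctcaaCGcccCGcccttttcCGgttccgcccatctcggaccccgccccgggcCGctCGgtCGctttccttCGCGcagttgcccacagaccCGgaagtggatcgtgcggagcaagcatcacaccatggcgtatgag

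Promoters in the intervals were mostly unmethylated. Of the 26 windows, 21 averaged under 20% methylation over the 6 libraries, 17 of these under 5%, 2 stood between 20 and 80%, and 3 stood over 80%. The share at 20% or more was 19.2% (5 of 26, exact Clopper-Pearson 95% interval 6.55 to 39.4%, which covers counting error only). Elsewhere on chromosome 19 it was 14.3% of 244 windows, a value inside that interval. Windows that share CpGs were each counted, such as ZNF582 and ZNF582-DT among the 5. The windows are therefore not independent, and the interval does not allow for that. The median level was 0.749% in the intervals and 0.472% elsewhere. GC content of the 5 windows at 20% or more was 53.0 to 67.7% and that of the other 21 was 56.3 to 77.7%. The ratio of observed to expected CpGs was 0.645 to 1.02 in the 5 windows and 0.624 to 1.14 in the 21, so neither measure separated them.

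The lowest levels belonged to a mix of zinc finger and other genes. The SMG9 window, the promoter of a nonsense-mediated decay factor, averaged 0.113% over 11 CpGs. ZNF805 averaged 0.198%, and LOC124904772, an uncharacterised locus that starts beside ZNF787, averaged 0.215% over 21 CpGs. ATP13A1, which encodes an endoplasmic reticulum transport ATPase, averaged 0.233%, and ZSCAN5A, a zinc finger gene with a SCAN domain, averaged 0.264%. The divergent pair of MAN2B1, a lysosomal mannosidase gene, and WDR83 shared 6 CpGs at 0.306%, and the zinc finger genes ZNF799, ZNF787, ZNF71, ZNF766 and ZNF83 averaged 0.265, 0.348, 0.413, 0.742 and 0.755%. The LPAR2 window averaged 0.731% and LOC124904792, an uncharacterised locus in interval 4, averaged 2.94%. In these windows SAM and control libraries overlapped. Several of these low averages rested on 1 library. Without control library 2 the average was 0.0810% at MAN2B1 and WDR83, 0.391% at ZNF766 and 0.462% at ZNF83. Without SAM library 2 it was 0% at ZNF805, 0.106% at LOC124904772, 0.114% at ZNF799 and 0.171% at ZNF787, while it was 0.229% at ZNF71 without SAM library 1 and 0.152% at ATP13A1 without control library 3. At ZNF160 the 16 printed CpGs averaged 1.89, 0.694 and 0.889% in SAM libraries 1 to 3, against 0.208, 0.151 and 1.96% in control libraries 1 to 3. The groups overlapped there, and control library 3 was the highest of all 6. One CpG, 65 bases before the ZNF160 start, stood at 24.1, 0 and 3.82% in SAM libraries and 0, 0 and 20.2% in controls. It carried most of the level in SAM library 1 and control library 3, but not in the others.

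At the other end, the ZNF534 window stood at 95.5, 100 and 92.3% in SAM libraries 1 to 3, against 96.0, 93.8 and 94.0% in control libraries. The USP29 window stood at 98.2, 95.5 and 99.6% in SAM libraries and 97.5, 100 and 99.4% in controls. Both promoters were close to full methylation in every library, and the groups overlapped at both. USP29 neighbours PEG3 in an imprinted domain, where genes are normally active from a single parental copy. In a wider set of windows that needed only 6 matched positions and 3 CpGs, chosen after the data were seen, 9 of 38 windows stood at 20% or more. It added AURKC, a kinase of germ cell division, at 98.6% and the zinc finger genes ZNF578 at 90.01% and ZNF880 at 56.8%. It also added ZIM2-AS1, an antisense RNA of the imprinted gene ZIM2, at 23.1%.

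**Figure D1:**
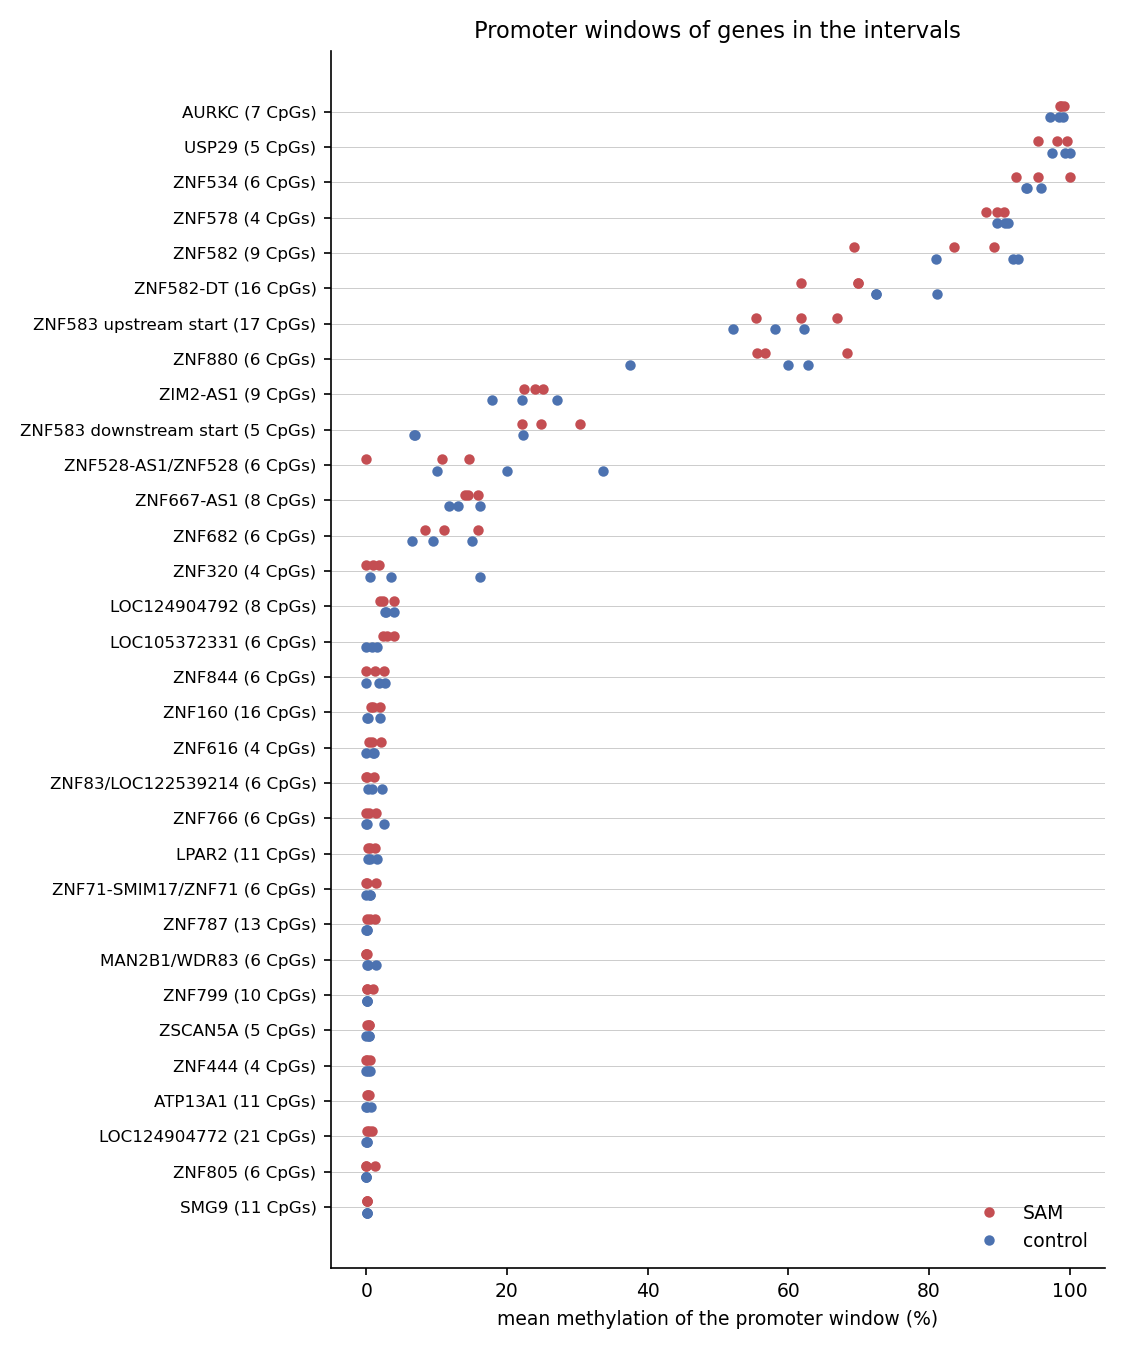
Mean methylation (%) of each placed promoter window in the intervals, 1 point per library, with SAM above control in each row and windows ordered by level. Windows that share all their CpGs share a row, and the plot includes the wider set; most rows lie near 0, 3 windows of the stricter set lie above 80%, and ZNF582-DT and the upstream start of ZNF583 lie in between.

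The region of ZNF582 held the promoter difference at which SAM and control libraries did not overlap. ZNF582 and ZNF582-DT start head to head, and their windows share 9 measured CpGs. The ZNF582-DT window averaged 69.8, 61.8 and 69.9% in SAM libraries 1 to 3, against 72.5, 72.5 and 81.2% in control libraries. All 3 SAM libraries were below all 3 controls, a difference of -8.21 percentage points (67.2% ± 4.69 with SAM and 75.4% ± 5.01 in controls, n = 3 each, SD). It was -6.97 points in set A and -6.69 in set B. The highest SAM library was below the lowest control by less than the SD of either group. The CpGs of the window had 12 to 372 reads per library. The same 16 CpGs, from 56904815 to 56904945, form 1 CpG group, for which edgeR's quasi-likelihood test gave an adjusted p of 1 over all groups of the genome. Without SAM library 2 the difference was -5.50 points, and without control library 3 it was -5.32. Of the 26 windows this was the only one whose libraries did not overlap (3.85%), against 8.52% of the 270 windows placed on chromosome 19 with levels.

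Within that window the level depended on the position of the CpG. The 2 CpGs farthest from the start, 230 and 222 bases before it, averaged 21.0 and 16.4%. At the next one, 206 bases before the start, methylation was 70.2, 50 and 64.5% in SAM libraries and 96.4, 84.9 and 90.1% in controls. That CpG showed the widest gap between the groups. From 160 to 122 bases before the start the CpGs averaged 89.8 to 99.94%, and the one at 100 bases averaged 57.3%. SAM library 2 stood apart from the other 5 at 3 neighbouring CpGs, 179, 177 and 166 bases before the start, with 21.4, 50 and 18.5%. The ZNF582 window, which holds these 3 but not the CpGs farther out, averaged 83.6, 69.3 and 89.2% in SAM libraries and 81.0, 92.0 and 92.6% in controls, and there the groups overlapped (-3.25 points in set A and -12.7 in set B).

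ZNF583 is a zinc finger gene whose windows were the next placed along the chromosome. It has RefSeq starts whose windows differed in level, with averages over all libraries of 59.4% upstream and 18.9% downstream. Its upstream window averaged 66.9, 55.4 and 61.8% in SAM libraries 1 to 3, against 58.2, 62.3 and 52.2% in control libraries, over 17 CpGs. The groups overlapped, with a difference of 3.84 points that was 11.8 in set A, -3.67 in set B, 1.05 without SAM library 1 and 1.15 without control library 3. CpGs from 4 to 20 bases past that start averaged 79.8 to 90.9%, while the first CpG of the window, 137 bases before the start, averaged 13.1%. The downstream window held 5 CpGs and averaged 30.4, 22.1 and 24.8% in SAM libraries, against 6.76, 6.92 and 22.2% in controls. SAM library 2 was just under control library 3, so the groups overlapped despite a difference of 13.8 points (25.8% ± 4.24 with SAM and 12.0% ± 8.88 in controls, n = 3 each, SD). That difference was 15.9 points in set A and 16.5 in set B.

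Inside the downstream window of ZNF583, methylation at 2 CpGs was read only in SAM libraries. At 56915653 it was 46.9, 12.8 and 34.2% in SAM libraries 1 to 3, against 0% in each control library, on 47 to 266 reads per library. If each read were an independent molecule, the 62 to 74 control reads would allow up to 4.05 to 4.84% (3 reads of the total), below each SAM library. Copied reads cannot be told apart here, so the limits at this CpG and the next may be higher. At 56915655 it was 31.7, 12.8 and 13.2% in SAM libraries, against 0% in each control, where the reads allow up to 4.05 to 5.66%. Its difference was 19.2 points, with 31.7 in set A and 13.0 in set B. Both were among the 5 members with the smallest p by edgeR, and neither passed, with an adjusted p of 0.890 for each. The difference at 56915653 was 31.3 points, with 46.9 in set A and 23.5 in set B. The CpG just upstream, 56915650, stood at 40.6, 59.6 and 33.3% in SAM libraries, against 13.5, 14.7 and 13.6% in controls, a difference of 30.6 points without overlap (27.1 in set A and 31.7 in set B). The groups overlapped at the other 2 CpGs of the window. At 56915626, control library 3 had the highest value of all 6, 49.2%, and at 56915658 it again had the highest, 48.4%. Over the whole ZNF583 group, 26 CpGs from 56915246 to 56915791, SAM and control libraries overlapped (unadjusted p of 0.912 by edgeR's quasi-likelihood test).

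**Figure D2:**
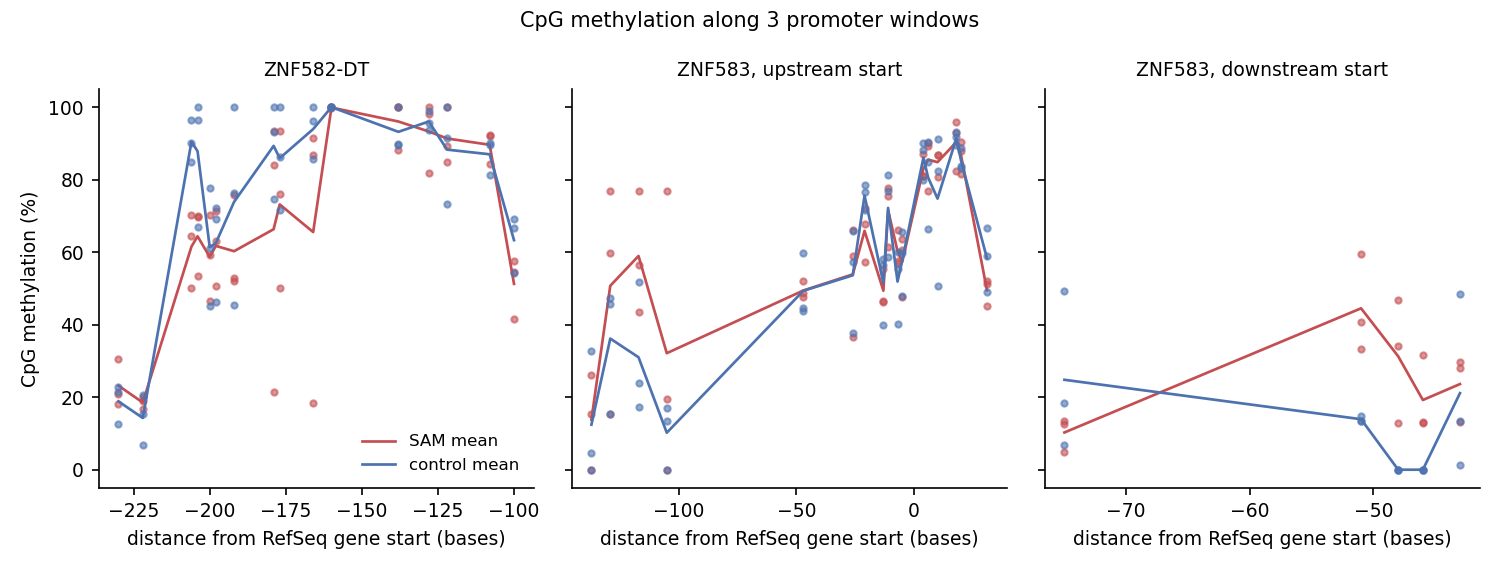
Methylation (%) of each measured CpG against its distance from the RefSeq gene start (bases) in the windows of ZNF582-DT and of both ZNF583 starts, with points for single libraries and lines for group means. SAM lies below control at the CpG 206 bases before the ZNF582-DT start, and the 2 downstream CpGs of ZNF583 with 0% in all controls lie 48 and 46 bases before its start.

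ZNF528 and its antisense RNA ZNF528-AS1 share 6 measured CpGs, and their level was 10.8, 0 and 14.6% in SAM libraries 1 to 3, against 33.7, 20.02 and 10.02% in control libraries. The groups overlapped, and the difference was -12.8 points (-11.1 in set A, -12.7 in set B and -6.54 without control library 1), on 10 to 330 reads per CpG. The average over all 6 libraries was 11.1% without control library 1, against 14.9% with it. SAM library 2 had no methylated read at any of the 6 CpGs, while control library 1 reached 63.6% at the CpG 30 bases before the ZNF528 start. ZNF667-AS1, an antisense RNA that starts beside ZNF667, was steadier, with 13.99, 15.8 and 14.4% in SAM libraries and 16.2, 11.7 and 13.0% in controls. Of 11 genes of the KRAB and TRIM28 pathway outside the clusters, 1 window, that of the zinc finger gene ZNF445, was placed and 0 gave a level, so this pathway was not analysed here.

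Over all members, mean methylation differed between SAM and control by less than the spread between libraries. It was 43.0, 42.2 and 43.0% in SAM libraries 1 to 3 and 43.0, 42.2 and 42.7% in control libraries 1 to 3. The means were 42.7% ± 0.468 with SAM and 42.6% ± 0.405 in controls (n = 3 each, SD). The difference, SAM minus control, was 0.0879 points, standard error 0.357 (exact two-sided permutation p = 1), with 0.151 in set A and 0.363 in set B. The smallest p that 3 libraries against 3 allow is 0.10. The rest of chromosome 19 stood at 46.9% ± 0.0473 with SAM and 47.0% ± 0.00263 in controls. The difference between the SAM effect in the clusters and on the rest of the chromosome was 0.215 points, standard error 0.337 (exact two-sided permutation p = 0.5), with 0.243 in set A and 0.506 in set B.

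The intervals differed from each other far more than the groups did. Over all 6 libraries interval 1 was the lowest, at 33.9% ± 0.532 (SD, n = 6), followed by interval 4 at 36.3% ± 1.10. Interval 6 stood at 46.4% ± 1.23, interval 3 at 46.8% ± 0.618 and interval 2 at 46.8% ± 0.463, and these 3 were within their spread of each other. Interval 5, which holds ZNF582 and ZNF583, was the highest at 51.4% ± 0.435. Between groups, interval 3 had the largest difference, 0.302 points, from 46.9% ± 0.645 with SAM and 46.6% ± 0.687 in controls. It was 0.117 points in set A and 0.990 in set B. Interval 6 differed by 0.0253 points, made of 1.73 in set A and -1.83 in set B. Interval 1 differed by 0.0297 points (-0.549 in set A, 0.789 in set B), interval 2 by 0.167 (0.103 in set A, 0.167 in set B), interval 4 by 0.227 (0.494 in set A, 0.959 in set B) and interval 5 by -0.0418 (0.293 in set A, 0.00245 in set B). The groups overlapped in each interval, and the exact permutation p adjusted over the 6 was 1 for each.

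**Figure D3:**
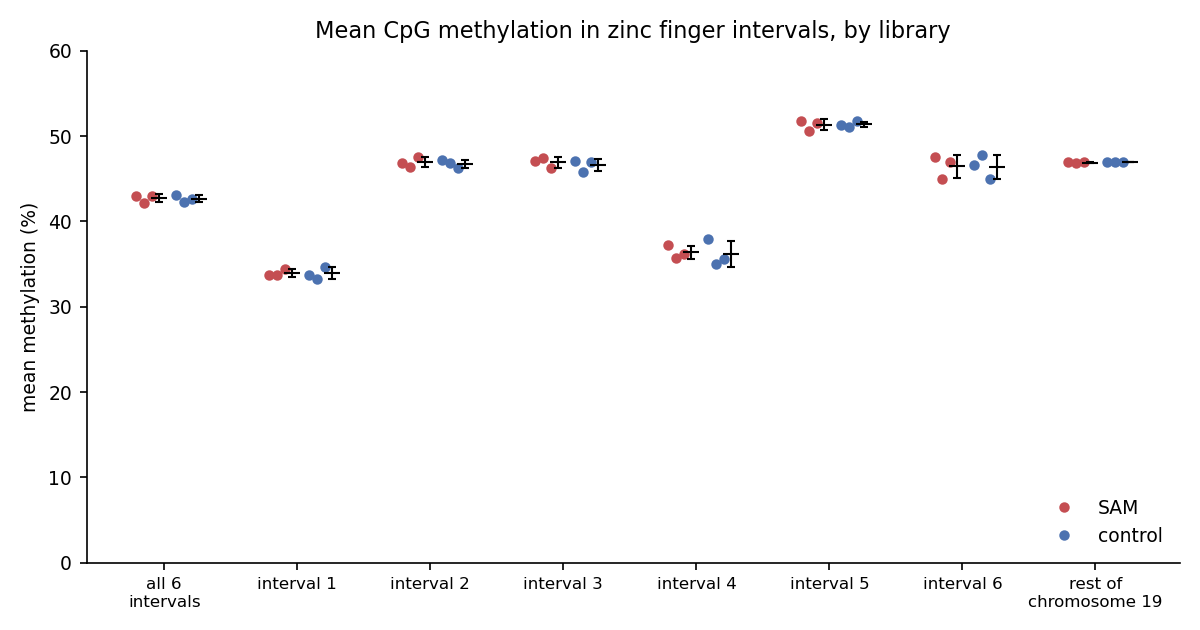
Mean methylation (%) of members in all 6 intervals together, in each interval and on the rest of chromosome 19, 1 point per library, with SAM left of control and black lines for the mean ± SD of each group beside its points. SAM and control libraries overlap in every interval, and interval 1 is the lowest and interval 5 the highest.

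Set against the rest of chromosome 19, the clusters were less methylated in each of the 6 libraries. The difference, clusters minus rest, was -3.92, -4.64 and -3.90 points in SAM libraries 1 to 3 and -3.97, -4.77 and -4.36 points in control libraries 1 to 3. Its mean was -4.26 points ± 0.387 (SD, n = 6; exact two-sided sign-flip permutation p = 0.03125, the smallest that 6 libraries allow). It was -4.08 points in set A and -4.44 in set B, and -9.89 points with reads as weights. With each library's own CpGs of at least 10 reads in place of the common ones, the difference was 0.0984 points, so its direction depends on which CpGs are read. The p-value covers the libraries and not the choice of CpGs.

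The gap depended on how densely CpGs were listed around a member. In windows of 1 kb with 5 to 14 listed CpGs, members averaged 51.2% and other CpGs of the chromosome 66.5%, a difference of -15.4 points ± 0.678 (SD, n = 6). With 15 to 39 listed CpGs the averages were 36.0 and 43.2% and the difference was -7.18 points ± 0.288. With 1 to 4 they were 71.2 and 75.7% and the difference was -4.44 points ± 0.949. These 3 differences were negative in 6 of 6 libraries (exact sign-flip permutation p = 0.03125, adjusted over 4 classes 0.0417). With 40 or more listed CpGs, members averaged 30.1% and other CpGs 29.7%, and the difference was 0.400 points ± 0.696 (exact sign-flip permutation p = 0.281). At 20 reads the difference in the sparsest class was 11.1 points, and with reads as weights it was 8.69 points there, while the difference in the class of 5 to 14 was -2.91 points (exact sign-flip permutation p = 0.219). The difference in the densest class changed to -20.0 points with reads as weights, -0.537 at 20 reads, -0.795 with each CpG group counted once and 5.22 with each library's own CpGs (exact sign-flip permutation p = 0.03125 for the first and the last). Members of the densest class came mostly from interval 5, where 43.3% of members were that dense, and intervals 1, 3 and 6 had 0% there.

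The clusters also held more CpGs of intermediate level. Of the members, 48.4% averaged under 20%, 17.7% between 20 and 80% and 33.9% over 80%, against 47.4, 11.1 and 41.6% on the rest of the chromosome. In the densest class 21.4% of members and 8.53% of other CpGs lay between 20 and 80%. The contrast was smaller in the other classes. Shares were 18.2 and 16.1% with 1 to 4 listed CpGs, 20 and 11.8% with 5 to 14, and 14.7 and 11.7% with 15 to 39. Interval 5 had the highest share, 24.4% of its 356 members, and interval 3 the lowest, 10.7% of 56. Interval 1 stood at 12.5% of 343, so intervals 1 and 3 were near the rest of the chromosome. Neighbouring CpGs are not independent, and these shares were not tested. Members between 20 and 80% averaged 48.9% ± 2.25 with SAM and 48.6% ± 1.52 in controls. Those over 80% averaged 95.8% ± 0.107 with SAM and 95.4% ± 0.579 in controls, and those under 20% averaged 3.34% ± 0.130 with SAM and 3.51% ± 0.275 in controls (n = 3 each, SD). The groups overlapped in all 3 classes. The differences in sets A and B were 0.706 and 1.32 points between 20 and 80%, 0.324 and 0.343 points over 80% and -0.171 and 0.0292 points under 20%.

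**Figure D4:**
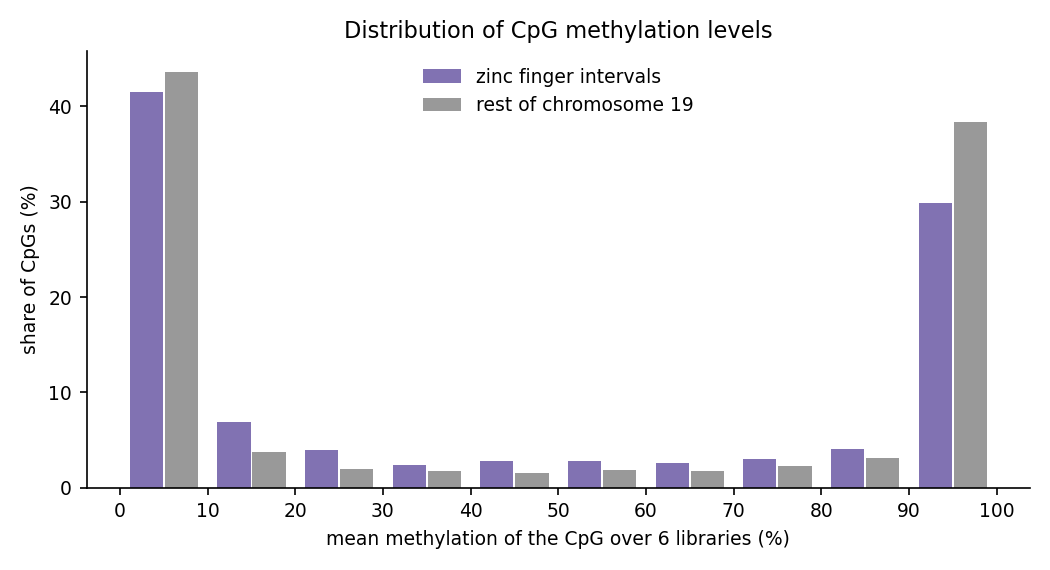
Share of CpGs (%) by mean methylation over the 6 libraries in steps of 10 points, for the intervals and for the rest of chromosome 19. Both pile up at the ends, and the intervals hold fewer CpGs above 90% and more in each step from 10 to 90%.

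Neighbouring members were joined into 170 CpG groups, runs of at least 3 CpGs with gaps of at most 300 bases, which held 1281 members. The groups held 5 CpGs at the median and 42 at most. Of them 71 averaged under 20%, 36 between 20 and 80% and 63 over 80%, with 43 over 95%. Groups at placed promoter windows, the wider set included, were mostly low, 21 under 20%, 5 in between and 4 over 80%. Libraries differed most in the middle of the range, where the median SD between the 6 libraries was 3.66 points, against 1.02 points in groups under 20% and 2.15 in groups over 80%.

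The group with the most CpGs in 4 intervals was nearly unmethylated. It averaged 1.67% over 36 CpGs at LPAR2, a lysophosphatidic acid receptor gene in interval 2, and 0.113% over 11 CpGs at SMG9 in interval 3. It averaged 0.926% over 18 CpGs at ZNF160 in interval 4 and 0.598% over 16 CpGs from 57999187 to 57999468 in interval 6. In interval 1 it lay from 11909518 to 11909811 and averaged 5.59% over 19 CpGs. In interval 5 the longest group of all, 42 CpGs from 57049676 to 57050407, stood at 30.2, 29.6 and 29.7% in SAM libraries 1 to 3 and 30.0, 30.8 and 32.6% in control libraries. The groups overlapped there, and single CpGs of that stretch ranged from 0.647 to 72.2%. It lay 28430 bases from the nearest placed gene start, that of ZNF470, which was placed only in the wider set.

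Groups of intermediate level often mixed high and low CpGs. Among 25 groups of at least 5 CpGs that averaged 20 to 80%, 13 spanned more than 50 points between their lowest and highest CpG. The ZNF583 group, 26 CpGs from 56915246 to 56915791, averaged 49.2% with single CpGs from 9.61 to 90.9%. The 8 CpGs from 24186585 to 24186739 averaged 71.9% and ran from 0 to 98.3%, and the 9 CpGs from 12758976 to 12759034 averaged 65.9% and ran from 25.2 to 98.3%. A group of 11 CpGs 254 bases from the ZNF470 start averaged 42.2%, and 9 CpGs at ZIM2-AS1, also of the wider set, averaged 23.1%. Others averaged 34.8% from 21769281 to 21769672, 78.5% from 57154567 to 57154760 and 78.5% from 56728725 to 56728984. SAM and control libraries overlapped in each of these named groups.

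The question of the design, whether methylation differed between SAM and control, gave no call among the groups. Of 167 groups tested, 0 passed an adjusted p under 0.05 by edgeR's quasi-likelihood test, against 0% of the 33065 tested in the genome. At an unadjusted p under 0.05 it gave 4 groups, where the genome gave 3.23%, and limma gave 0 adjusted and 9 unadjusted, where the genome gave 4.22%. SAM libraries did not overlap control libraries in 14 of 170 groups, 12 higher and 2 lower, against 9.15% of all groups, 5.24% higher and 3.91% lower. The median difference was 0.0401 points in the clusters and 0.0298 points over all groups of the genome. Differences ran from -23.1 to 14.6 points, with 16 groups beyond 5 points and 5 beyond 10. In simulated data with a spread between libraries added, edgeR and limma each recovered 0% of 20-point changes among 13333 groups. That spread was a fixed setting and was not fitted to these libraries, so recovery at their own spread was not tested. A count of 0 does not show that such changes are absent.

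Among groups of at least 5 CpGs whose libraries did not overlap, the ZNF582 region was one of 2 that were lower with SAM. The other, 5 CpGs from 22700893 to 22700937, stood at 86.2, 86.0 and 92.9% in SAM libraries 1 to 3 and 94.8, 95.2 and 96.6% in control libraries, a difference of -7.14 points (-9.50 in set A and -5.69 in set B). The highest SAM library was below the lowest control by less than the spread of the SAM libraries. The largest difference among the higher groups of that size, at 5 CpGs from 57610862 to 57610911, was 3.10 points (1.67 in set A and 5.17 in set B), with 26.9, 26.9 and 28.4% in SAM libraries and 25.5, 22.5 and 24.9% in controls. A shorter group, named after its values were seen, differed by more: the 4 CpGs from 22397699 to 22397735 stood at 47.8, 53.7 and 49.0% in SAM libraries and 43.7, 42.4 and 36.9% in controls, a difference of 9.16 points (7.53 in set A and 8.92 in set B). At LOC105372331, an uncharacterised locus in interval 2 placed in the wider set, 6 CpGs stood at 3.99, 2.38 and 2.91% in SAM libraries and 0.749, 1.59 and 0% in controls (3.62 points in set A and 1.06 in set B). These CpGs had 12 to 108 reads per library. SAM library 2 was above 0% only at 22778844 (14.3%) and control library 2 only at 22778860 (9.52%), so the lack of overlap rested on few reads. The group from 53313197 to 53313348 stood at 98.4, 99.2 and 98.6% in SAM libraries and 98.0, 97.7 and 93.6% in controls, and its difference of 2.31 points was 0.880 without control library 3. It was 2.63 points in set A and 1.17 in set B. The groups at 56658270 and 53088623 were higher by 0.723 points (1.38 in set A, 0.328 in set B, 0.419 without SAM library 1) and 0.487 points (0.346 in set A, 0.675 in set B).

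The smallest p among the groups belonged to 31 CpGs from 56631979 to 56632379, which lie 285 bases from the start of ZNF787, a zinc finger gene. It stood at 0.437, 0.568 and 0.662% in SAM libraries 1 to 3, against 0.0549, 0.421 and 0.00525% in control libraries (adjusted p of 1 by edgeR). SAM libraries were all higher, by 0.395 points (0.407 in set A and 0.194 in set B), in a stretch that was close to unmethylated in every library. Another, 5 CpGs from 12405838 to 12405873 near ZNF44, stood at 0.286, 0 and 0% in SAM libraries and 1.27, 0 and 1.20% in controls, and the groups overlapped (-0.952 points in set A and 0 in set B). Its adjusted p from edgeR was also 1.

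**Figure D5:**
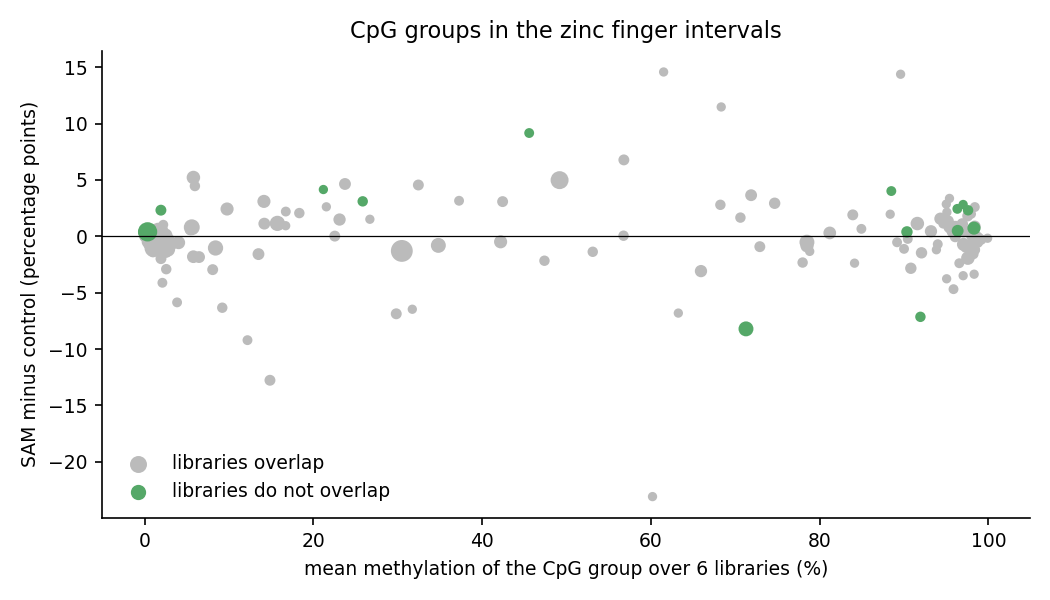
Difference in mean methylation, SAM minus control (percentage points), of each CpG group in the intervals against its mean level over the 6 libraries (%), with larger points for more CpGs and green for groups whose libraries do not overlap. There are 14 green points, and the widest differences, from -23.1 to 14.6 points, belong to groups whose libraries overlap.

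Single CpGs gave no call either. Of the 1365 members, 1188 had both kinds of read and were tested, while 159 had no methylated read in any library and 18 had no unmethylated one. By edgeR's quasi-likelihood test 0 passed an adjusted p under 0.05, against 0% of the 257696 CpGs tested, and 32 had an unadjusted p under 0.05, where the genome gave 2.81%. Limma gave 0 adjusted and 40 unadjusted, where the genome gave 4.07%. The libraries did not overlap at 78 members, 44 higher and 34 lower, against 4.9% of all CpGs, 2.7% higher and 2.19% lower. Besides the 2 CpGs at ZNF583, the 5 smallest p-values belonged to 2 CpGs near ZNF787 and 1 near ZNF682. At 56632129 methylation was 1.96, 2.74 and 2.66% in SAM libraries 1 to 3, against 0.0655, 0 and 0.163% in controls, a difference of 2.38 points (1.85 in set A and 2.70 in set B). The 67 reads of control library 2 there allow up to 4.48%, above each SAM library. At 56631979 it was 1.02, 4.11 and 2.94% in SAM libraries and 0% in each control, a difference of 2.69 points (1.02 in set A and 3.53 in set B). Control library 2 had 20 reads there, which allow up to 15%, more than any SAM library showed. The CpG at 20149955 lies 109 bases from the start of the zinc finger gene ZNF682, placed in the wider set. Methylation there was 6.50, 13.4 and 8.29% in SAM libraries and 1.83, 0 and 0% in controls. The difference was 8.79 points (5.59 in set A and 10.8 in set B). The measured values of all SAM libraries exceeded those of all controls at these 3, but at both CpGs near ZNF787 the depth of control library 2 could not show a difference from SAM, and the adjusted p from edgeR was 0.890 for each.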

How the data were processed

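Per the file headers, the deposited lists give, for each cytosine of 6 PC-3 libraries, its coverage (a read count) and the percent C and percent T among those reads. CASAVA 1.8.2, FastQC 0.10.0, Bismark 0.7.4, methylKit 0.5.3 and hg19 are named per the submitters' processing notes, with no role or order. The sources used here give neither library type nor duplicate removal, so copied reads cannot be told from independent molecules, and intervals cover counting error only.

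Methylated reads were recovered as coverage times percent C, rounded, and the minus strand C was joined to the plus strand C 1 base before it. CpGs with at least 10 reads in all 6 libraries were kept and weighted equally, and 841 members had 20. Total reads were 33056018 to 183523792. Means were compared with exact permutation tests over libraries. Methylated and unmethylated counts of single CpGs and of CpG groups were tested over the whole genome with edgeR 4.0.16 (R 4.3.3, quasi-likelihood, Benjamini-Hochberg, threshold 0.05), and limma 3.58.1 on log2 ratios with 0.5 added was the alternative. Both tests were tested on simulated data of 13333 groups with 200 changed by 20 points. With counting error alone edgeR recovered 100% and limma 87.5%. With an added spread between libraries, a fixed setting not fitted to these data, both recovered 0%. Other steps ran in Python 3.11.15 with scipy 1.17.1, pandas 2.3.3 and numpy 2.4.6.

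No hg19 annotation was used. A promoter was placed where at least 10 listed positions fell on its CpGs, 0 fell elsewhere in the window and the next best place had at least 3 fewer. Of 1917 chromosome 19 promoter sequences of RefSeq (GRCh38.p14), 520 were placed on it, and 1 more, of a gene of another chromosome in the pathway list, was placed too. All 521 lay in the annotated orientation, and 438 of 438 neighbouring pairs in RefSeq order. Gene names rest on that match. Coverage sets came from average linkage of mean reads in 49341 windows of 1 kb.

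Named groups were, among those of at least 5 CpGs, the longest in each interval, up to 5 each way with the largest differences without overlap, the 10 longest at 20 to 80%, and the 5 with the smallest p. Named CpGs were the 5 with the smallest p, and named promoters the 10 highest, the 5 lowest and those at 20 to 80%. Other items named were chosen after their values were seen. The members, lists and rules were chosen with earlier results of these data known. The alternatives were a minimum of 20 reads, reads as weights, each library's own CpGs, groups counted once, other gaps and CpG minimums, strands apart, a replicate block, a coverage set term, removal of CpGs above the 99.9th percentile of coverage and leaving out each library.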

Additional observations from a re-analysis of the deposited data

How the results depend on the processing

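edgeR and limma gave 0 calls for groups and CpGs of the clusters at each setting tried, and comparisons of means over 3 libraries against 3 could not pass at any. The member mean difference of 0.0879 points changed sign to -0.219 at 20 reads, -1.05 with reads as weights, -0.955 with each library's own CpGs and -0.0219 with each group counted once, and leaving out each library gave -0.117 to 0.358. Interval 1 gave -0.0559 at 20 reads, -1.10 with reads as weights and -0.549 in set A, and -0.283 to 0.415 without each library. Interval 2 gave -2.24 with weights, -1.08 with own CpGs and -0.170 by groups, and -0.132 to 0.423 without each library. Interval 3 gave -0.0256 with weights and -0.0476 with own CpGs, and -0.0943 to 0.664 without each library. Interval 4 gave -0.986 at 20 reads, -3.28 with weights, -2.03 with own CpGs and -0.164 by groups, and -0.350 to 1.10 without each library. Interval 5 gave 0.765 with weights, 0.293 in set A and 0.00245 in set B, and -0.280 to 0.306 without each library. Interval 6 gave -0.535 with own CpGs and -1.83 in set B, and -0.709 to 0.786 without each library. The cause of these changes was not tested.

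The difference between the clusters and the rest of chromosome 19 was 0.0984 points with own CpGs, -4.08 in set A, -4.44 in set B and -4.33 to -4.16 without each library. With 5 libraries the smallest sign-flip p is 0.0625 and with 3 it is 0.25, so these subsets could not pass. At 1 to 4 listed CpGs per kb it was 11.1 at 20 reads, 8.69 with weights, -3.89 in set A, -4.98 in set B and -4.69 to -4.22 without each library. At 5 to 14 it was -2.91 with weights, -15.4 in set A, -15.3 in set B and -15.5 to -15.2 without each library. At 15 to 39 it was -6.95 in set A, -7.41 in set B and -7.25 to -7.11 without each library. At 40 or more it was -0.537 at 20 reads, -20.0 with weights, 5.22 with own CpGs (exact sign-flip permutation p = 0.03125), -0.795 by groups and 0.236 to 0.584 without each library. The SAM effect in the clusters against the rest was -0.115 at 20 reads and 0.0114 to 0.458 without each library. The cause of these shifts was not tested.

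Groups without overlap numbered 9 of 106 at a minimum of 5 CpGs (8.49%, against 9.23% of all such groups). At the other settings they numbered 10 to 16. The number of groups differed between those settings, so these counts alone do not show more or fewer than in the genome. The group at 12405838 was 0 in set B. The share of promoter windows at 20% or more was 18.8 to 24.2% with other match and read minimums. At 20 reads, levels moved to 59.8% at ZNF582-DT, 68.3% at the upstream start of ZNF583 and 19.01% at ZNF667-AS1, since fewer CpGs of each window remain. At ZNF582 only the CpG at 56904885 remained, at 99.94%, so that value does not describe the window. The wider promoter set, the coverage sets for named groups the settings for groups without overlap and promoter differences without each library were added after seeing the data. Replicate numbers did not pair the libraries, with correlations of deviations of -0.00509, 0.00846 and -0.00791, and the replicate block gave 0.0879 points for the member mean (exact sign-flip permutation p = 1) and 0 calls. SAM library 2 and control library 2, with 43 and 40 median reads, limit the depth.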

Other observations

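The 3 widest differences among the CpG groups came from groups of 3 CpGs, and in all but the last single libraries stood apart. At 3 CpGs from 20183507 to 20183548 methylation was 60.9, 29.8 and 55.3% in SAM libraries 1 to 3 and 60.5, 88.9 and 65.9% in control libraries, a difference of -23.1 points that was -2.29 in set A and -46.3 in set B. At 3 CpGs from 57631390 to 57631405, at a second placed start of USP29, it was 74.7, 65.8 and 65.9% in SAM libraries and 65.7, 69.6 and 27.3% in controls, a difference of 14.6 points (28.2 in set A and -3.81 in set B). At 3 CpGs from 11785043 to 11785062 it was 100, 100 and 90.4% in SAM libraries and 79.1, 90.5 and 77.7% in controls, a difference of 14.4 points (21.6 in set A and 4.71 in set B). The groups overlapped at all 3, which were chosen after their values were seen. The part of depth, at 38 to 602 reads per library summed over the first of these groups, was not tested.

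A pair of zinc finger promoters of the wider set also had single libraries apart. At ZNF320 control library 3 stood at 16.2%, against 0.893, 0 and 1.88% in SAM libraries and 3.53 and 0.581% in the other controls. At ZNF880 control library 2 was the lowest of all 6, at 37.5%, against 55.6 to 68.3% in SAM libraries.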
